A study of Rattus norvegicus with 12 samples.

Results

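Crem, Rfx2, Tbpl1 and Ybx2 are 4 genes whose protein products control transcription or the storage of mRNA in round spermatids, the haploid male germ cells that form after meiosis. Their expression was followed in the rat over all 4 groups of a microarray series. The members were the probe sets of the Affymetrix Rat Genome 230 2.0 array whose annotation names 1 of these genes and no other. The array names 14217 genes in this way. The 4 genes had 9 such probe sets, among 20826 that name 1 gene and 31099 in all. Crem had 6 probe sets, and Rfx2, Tbpl1 and Ybx2 had 1 each.

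All cells came from Dark Agouti (DA) inbred rats, and no transgene, deletion or drug is named in the labels. RAH-6 and RAH-2 were androgenetic haploid embryonic stem (ES) cell lines, called RahES together, meaning that their genome derives from the sperm alone. DA5-3 was diploid, also of ES type, and the fourth group held round sperm cells that were isolated fresh. The 3 ES lines grew in N2B27-2i, a serum-free medium with inhibitors that keep rodent ES cells undifferentiated. Each group had 3 arrays, which the labels call biological replicates, so each ES group stands for 1 line and the labels do not say whether round sperm cells came from separate animals. The p-values below therefore measure the spread between these arrays, and 3 arrays a group is what limits their precision. How the round sperm cells were purified is not given in the labels.

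CREM is a leucine zipper protein that binds the cAMP response element, and the testis makes activator forms of it after meiosis. A start site inside the gene gives the short repressor ICER. RFX2 is a winged helix protein that binds the X box of genes for cilia and the sperm tail. TBPL1, also known as TRF2, resembles the TATA-binding protein TBP and binds TFIIA, but does not recognise the TATA box. YBX2, also known as MSY2, is a Y-box protein with a cold shock domain that binds and stores mRNA in germ cells, including the protamine mRNAs. In mice that lack any of these 4 proteins the males are infertile and sperm formation fails at or around the spermatid stage.

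The rat genes lie on separate chromosomes of the assembly GRCr8. Crem spans chr17:58932011-59001160 with 46 RefSeq transcripts, and Rfx2 spans chr9:1691762-1759159 with 4. Tbpl1 spans chr1:24597028-24622445 with 17 transcripts, and Ybx2 spans chr10:55158420-55164077 with 1. RefSeq start regions of 300 bases, from 250 bases before to 50 bases after an annotated start, were at hand for 3 of the 4 genes. Crem had 3 such regions, all on the plus strand, and the last 2 begin 50731 and 51424 bases downstream of the first. The regions of Crem and Rfx2 are printed because they hold letters of the sites that their own protein families bind. Capitals mark TGACGTCA, the full cAMP response element, and TGACG, its first bases, in Crem, and GTTGCC, a short form of the RFX site, in Rfx2.
Crem start 1, chr17:58933816-58934115, plus strand: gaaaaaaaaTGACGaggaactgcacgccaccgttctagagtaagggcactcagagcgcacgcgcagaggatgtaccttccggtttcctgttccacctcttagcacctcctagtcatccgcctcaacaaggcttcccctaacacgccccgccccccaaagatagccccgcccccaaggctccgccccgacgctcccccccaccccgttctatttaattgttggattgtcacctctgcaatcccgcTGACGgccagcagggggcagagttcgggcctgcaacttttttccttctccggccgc
Crem start 2, chr17:58984547-58984846, plus strand: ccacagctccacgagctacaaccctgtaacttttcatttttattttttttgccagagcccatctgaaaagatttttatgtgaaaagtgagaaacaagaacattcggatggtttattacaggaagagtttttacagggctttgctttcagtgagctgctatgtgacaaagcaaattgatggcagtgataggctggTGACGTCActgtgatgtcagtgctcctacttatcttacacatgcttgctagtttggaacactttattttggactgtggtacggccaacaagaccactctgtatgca
Crem start 3, chr17:58985240-58985539, plus strand: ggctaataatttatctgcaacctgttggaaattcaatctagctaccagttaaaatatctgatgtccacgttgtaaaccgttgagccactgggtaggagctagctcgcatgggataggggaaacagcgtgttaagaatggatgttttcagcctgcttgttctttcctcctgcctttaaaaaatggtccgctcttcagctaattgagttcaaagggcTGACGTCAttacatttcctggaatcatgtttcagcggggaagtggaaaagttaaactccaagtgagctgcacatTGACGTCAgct
Rfx2 start, chr9:1758097-1758396, minus strand: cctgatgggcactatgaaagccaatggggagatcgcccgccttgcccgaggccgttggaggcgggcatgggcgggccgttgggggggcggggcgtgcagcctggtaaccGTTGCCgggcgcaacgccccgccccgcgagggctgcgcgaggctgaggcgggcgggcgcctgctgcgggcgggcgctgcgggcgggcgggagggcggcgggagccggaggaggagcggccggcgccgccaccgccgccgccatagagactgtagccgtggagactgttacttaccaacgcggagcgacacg

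Searched on both strands, TGACGTCA stood once in the region of Crem start 2 and at 2 places in that of start 3, and in none of the other regions. It was present in 612 of 33469 start regions of the same length, or 1.83%. The matches began 56 bases before start 2, and at start 3 they began 35 bases before it and at base 40 of the transcript. TGACG alone, which is also counted inside the longer word, was found in all 3 Crem regions and in 21.2% of all regions. GTTGCC began 141 bases before the Rfx2 start and was present in 12.2% of all regions. The Y box CTGATTGG and the TATA box TATAAA, present in 3.50% and 14.2% of all regions, had no match in the regions of Crem, Rfx2 and Tbpl1 (chr1:24597371-24597670). A match of letters is a description and shows no binding.

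All 4 genes were higher in round sperm cells than in every ES line. The 5 probe sets that reached a signal of 100 on at least 3 ES arrays were 3 of Crem and those of Tbpl1 and Ybx2. They rose by between 2.66 and 5.70 on the log2 scale against RahES. The smallest rise was that of Crem 1387714_at, whose ES signals of 80.4 to 156 lay close to 100. Rfx2 and the Crem probe set 1369737_at had low signals on every ES array, so their rise is given only as a bound, of at least 92.3-fold and 5.79-fold. Among the ES lines the 5 probe sets that could be tested differed by at most 0.52 in either direction, and none passed the criteria for a call. The plot of the 9 probe sets over the 12 arrays shows both patterns.

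**Figure D1:**
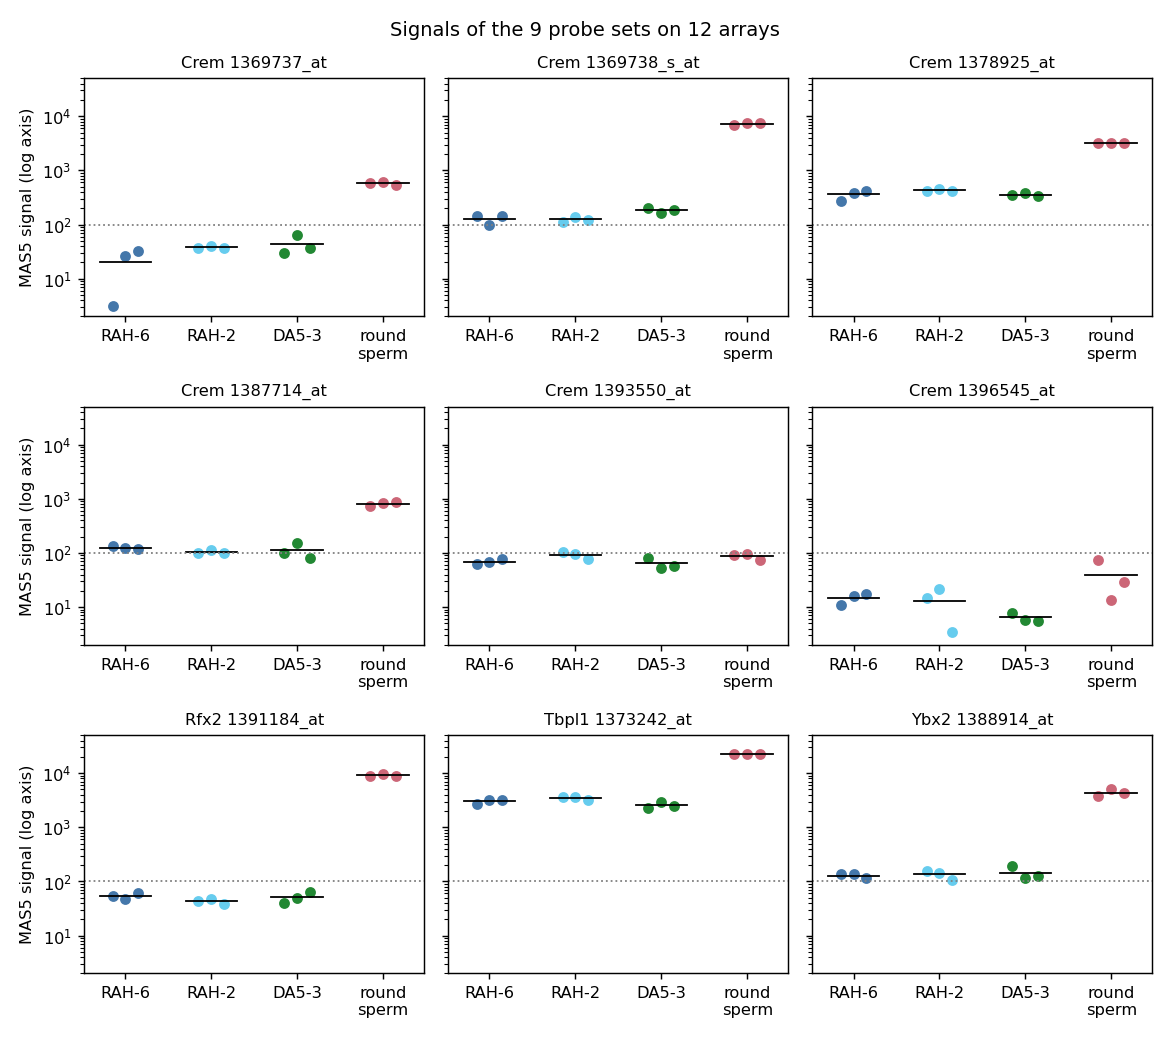
MAS5 signal, on a log axis, of the 9 probe sets on each of 12 arrays; points are arrays, horizontal bars are the means of 3 arrays, and the dotted line is a signal of 100. In 7 of the 9 panels the round sperm arrays lie above every ES array, and the Crem probe sets 1393550_at and 1396545_at do not pass the filter on low signals.

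Signals are the deposited MAS5 values on the linear scale, which each array's scaling sets to a 2% trimmed mean of 500. Between 47.3% and 49.0% of probe sets reached a signal of 100 on ES arrays and between 40.3% and 42.5% on round sperm arrays. Tests used limma on log2(signal + 16), where a probe set entered if at least 3 arrays of the fit reached 100. A probe set below 100 on every array of a group has no fixed level there, and its fold was taken against 100. A probe set was called at a Benjamini-Hochberg adjusted p below 0.05 over all probe sets and a log2 change of at least 1. Of the 9 member probe sets, 7 entered the fit of all 12 arrays. Rfx2 and Crem 1369737_at did so only through round sperm cells, where they are high, so that their entry already required a difference. Of the 9 member probe sets, 5 entered the fit of the 9 ES arrays. Listed genes below 100 on every ES array likewise entered the fit of all 12 arrays only through round sperm cells. Against RahES, 27.9% of all 14071 tested probe sets were called higher in round sperm cells and 43.6% lower, with a median change of -0.62. Against DA5-3 these shares were 28.4% and 43.5%, with a median of -0.59. Both comparisons share the round sperm arrays, so their values for the members are not separate evidence.

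The labelled cell types were checked on marker genes. All 7 round spermatid markers on the array, such as Prm1 and Tnp1, reached 100 on every round sperm array and stayed below it on every ES array. Of 6 markers of pachytene spermatocytes, the meiotic stage before, all reached 100 on every round sperm array, with a summed signal of 26643 to 29990 against 987 to 3793 on ES arrays. Sertoli cell markers summed to 918 to 1071 in round sperm cells, with 3 of 6 at 100 or more on every array, against 261 to 517 in ES cells. Leydig cell markers summed to 708 to 1031, with 3 of 6 at 100 or more, against 98.5 to 195. Of 4 ES cell markers, 2 were below 100 on every round sperm array, Sox2 among them with a mean of 7.03, and Klf4 had a mean of 6755. Spermatocytes also use the 4 genes, and the part of these other cells in the differences below was not tested. In bulk samples, a change in the share of a cell type and a change in RNA per cell cannot be told apart.

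Crem was the member with the most probe sets, and they did not move by the same amount. The probe set with the highest mean signal, which stands for Crem in lists, was 1369738_s_at, whose suffix marks probes shared by several transcripts. It read 7001, 7538 and 7452 on the 3 round sperm arrays. On the ES arrays it read 144, 96.1 and 145 in RAH-6, 109, 140 and 123 in RAH-2, and 201, 163 and 188 in DA5-3. The lowest round sperm array was far above the highest ES array. The change was 5.70 ± 0.13 (SE) against RahES (limma, adjusted p = 7.57e-15) and 5.20 ± 0.15 against DA5-3 (adjusted p = 1.32e-13).

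Another Crem probe set, 1378925_at, was above 100 on every ES array. It read 3215, 3223 and 3255 in round sperm cells, 274, 385 and 419 in RAH-6, 418, 451 and 414 in RAH-2, and 348, 375 and 330 in DA5-3. Here Crem rose by 3.00 ± 0.11 against RahES (limma, adjusted p = 1.65e-12) and 3.15 ± 0.13 against DA5-3. The groups of ES arrays lay side by side and well below the round sperm arrays.

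The remaining Crem probe sets were dimmer. Probe set 1387714_at read 734, 822 and 885 in round sperm cells against 80.4 to 156 over the 9 ES arrays, a rise of 2.66 ± 0.17 against RahES (limma, adjusted p = 1.05e-09) and 2.74 ± 0.19 against DA5-3. Probe set 1369737_at read 591, 620 and 531 in round sperm cells and stayed below 100 on all 9 ES arrays, at 3.09 to 62.8. Its mean was 580 ± 45.3 (SD, n = 3) in round sperm cells and 29.5 in RahES, and round sperm cells were at least 5.79-fold higher. On all of these 4 Crem probe sets the round sperm arrays lay above the ES arrays.

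The other 2 Crem probe sets did not enter a test. Probe set 1393550_at read 75.5 to 96.4 in round sperm cells, within the range of 53.7 to 105 over the ES arrays. Probe set 1396545_at read 73.8, 13.3 and 29.2 in round sperm cells and 3.43 to 21.3 in ES cells, so its groups overlapped. Neither shows a level well apart from that of the ES cells at these signals.

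Whether Crem probe sets changed unequally was tested within arrays. For each array the log2 difference between both probe sets was taken, and the 9 ES arrays were compared with the 3 round sperm arrays by an exact permutation test, two-sided, over 220 arrangements. The smallest p this design allows is 0.00455, and p-values were adjusted over 18 pairs of member probe sets with each other or with relatives. The test treats the 9 ES arrays as exchangeable, although each of the 3 lines gave 3 of them. Differences are not given here for pairs in which 1 probe set was below 100 on all ES arrays. The change of 1369738_s_at exceeded that of 1378925_at by 2.48 and that of 1387714_at by 2.85 (exact p = 0.00455 for both, adjusted p = 0.00682). The changes of 1378925_at and 1387714_at differed by 0.36 (exact permutation, adjusted p = 0.0972), which passed with an offset of 64 (0.60, adjusted p = 0.0109) and turned to -0.03 with quantile normalization.

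Rfx2 went from a low ES signal to a high one in round sperm cells. Its probe set 1391184_at read 8965, 9732 and 9005 on the round sperm arrays. In ES cells it read 54.1, 47.9 and 62.1 in RAH-6, 44.4, 47.5 and 38.4 in RAH-2, and 39.9, 49.0 and 64.9 in DA5-3, so that no ES array reached 100. Round sperm cells were at least 92.3-fold higher than the bound of 100 in both comparisons. Its mean was 9234 ± 432 (SD, n = 3) there, against 49.1 in RahES and 51.3 in DA5-3. The fit gave an adjusted p of 1.51e-15 against RahES (limma), which carries no weight of its own since the probe set entered through round sperm cells.

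Tbpl1 was well above the threshold of 100 in every group. Probe set 1373242_at read 22504, 22996 and 23018 in round sperm cells. It read 2741, 3132 and 3213 in RAH-6, 3591, 3702 and 3204 in RAH-2, and 2321, 2956 and 2513 in DA5-3. Round sperm arrays were above all ES arrays and close to each other, with a mean of 22840 ± 291 (SD, n = 3). The rise was 2.81 ± 0.07 against RahES (limma, adjusted p = 4.47e-14) and 3.14 ± 0.09 against DA5-3 (adjusted p = 8.83e-14).

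The Ybx2 signal was low but above 100 in ES cells. Probe set 1388914_at read 3790, 5066 and 4238 in round sperm cells, a mean of 4365 ± 647 (SD, n = 3). The ES arrays read 135, 136 and 114 in RAH-6, 154, 146 and 108 in RAH-2, and 190, 114 and 125 in DA5-3. No ES array came near the round sperm arrays, and the 3 ES lines overlapped. Ybx2 rose by 4.88 ± 0.16 against RahES (limma, adjusted p = 4.80e-13) and 4.81 ± 0.18 against DA5-3 (adjusted p = 3.87e-12). The plot of the changes sets both comparisons beside each other.

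**Figure D2:**
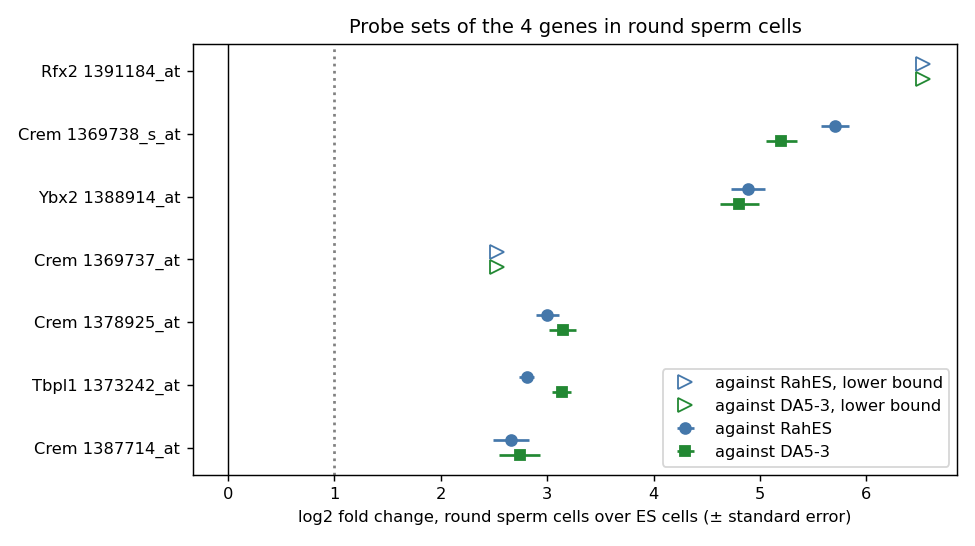
Log2 fold change of the 7 tested probe sets in round sperm cells against RahES and against DA5-3; circles and squares are fitted values with standard errors of the limma fit, open triangles are lower bounds for probe sets below 100 on every ES array, and the dotted line is a change of 1. The fitted values lie between 2.66 and 5.70, and the bounds are those of Rfx2 (at least 92.3-fold) and Crem 1369737_at (at least 5.79-fold).

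The calls of the 5 probe sets that reached 100 on at least 3 ES arrays held in every alternative that kept the probe set. Leaving out each array in turn was among these alternatives. The 3' to 5' signal ratio of the Gapdh control probe sets, a measure of RNA integrity and labelling, averaged 1.14 in RAH-6, 1.26 in RAH-2, 1.47 in DA5-3 and 2.18 in round sperm cells. The same ratio of the actin controls averaged 3.09, 4.36, 6.19 and 4.09 in that order, so it was not highest in round sperm cells. The part of RNA quality in the differences was not tested.

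Atf1 and Creb1, the relatives of Crem in its family, were both measured. Creb1, which encodes another activator on the same DNA element, was higher on its brightest probe set 1369708_a_at, with a mean of 2602 ± 85.6 (SD, n = 3) against a bound of 100, at least 26.0-fold. Its probe set 1371291_at averaged 389 in round sperm cells and 8.40 to 16.5 in the ES lines, but 1375655_at averaged 47.2 in round sperm cells and 129 to 212 in the ES lines, so no direction is given for the gene. Atf1, another activator of this family, fell by 2.18 ± 0.05 on the log2 scale. Against all 9 ES arrays, Crem and Atf1 differed in change by 7.71 (exact permutation, adjusted p = 0.00682). As Crem rose and Atf1 fell without overlap of arrays, this p could only be the smallest that the design allows.

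Of the cofactors and cAMP pathway genes listed with CREM, 10 of 12 on the array were tested, 3 rose and 4 fell, with a median change of -0.10. These shares stand beside 27.9% and 43.6% of all probe sets. The 3 that rose were Camk4, a calcium-dependent kinase that can phosphorylate CREM, by 3.83 ± 0.08, Prkar1a by 1.96 ± 0.07 and Prkaca by 1.18 ± 0.14. These last 2 encode a regulatory and the main catalytic subunit of protein kinase A. Genes of other subunits of the same kinase fell, with changes of -4.53 ± 0.07 for Prkar2a, -2.82 ± 0.12 for Prkar2b and -2.39 ± 0.10 for Prkacb. Camk4 is also counted in the next list, of genes that need CREM in mouse spermatids.

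Genes that need CREM in mouse spermatids were all higher in round sperm cells. Of 8 measured genes of this list, 8 rose and 0 fell, beside 27.9% and 43.6% of all probe sets, with a median of 9.56, or 8.37 with bounds in place of fits against an ES signal below 100. Prm1, which encodes a protamine that packs sperm DNA, averaged 65022 and was at least 648-fold higher. The transition protein genes Tnp1 and Tnp2, whose products replace histones before protamines, were at least 410-fold and 358-fold higher. These genes also mark the spermatid stage itself. In this list all but Camk4 were below 100 on every ES array and entered the fit only through round sperm cells. Their entry already required a rise, so the count is a description and not a test.

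Of 8 tested relatives and partners of Rfx2, 4 rose and 3 fell against RahES, beside 27.9% and 43.6% of all probe sets, with a median of 1.02. Rfx8 and Rfx4 were below 100 on every ES array and read 3391 ± 501 and 2414 ± 392 (SD, n = 3) in round sperm cells, at least 33.7-fold and 23.9-fold higher. Rfx1 rose by 2.23 ± 0.09 from a mean of 550 in RahES to 2625. Rfxank, part of the complex that drives MHC class II genes, rose by 1.83 ± 0.33 to a mean of 305. Its RahES signals of 34.6 to 102 were mostly below 100, so the size of this rise is uncertain. The other parts of that complex, Rfx5 and Rfxap, moved by -1.33 ± 0.10 and -2.11 ± 0.11, and the Rfx5 call ended with median centring (-0.66) and quantile normalization (-0.62). Rfx7 fell by 2.56 ± 0.14 on its brightest probe set, but its probe set 1384373_at averaged 290 in round sperm cells against 80.5 in RAH-6 and 83.2 in RAH-2. Rfx3, which like Rfx2 acts on cilium genes, read 134 to 162 in round sperm cells and changed by 0.22 ± 0.24 (limma, adjusted p = 0.394).

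**Figure D3:**
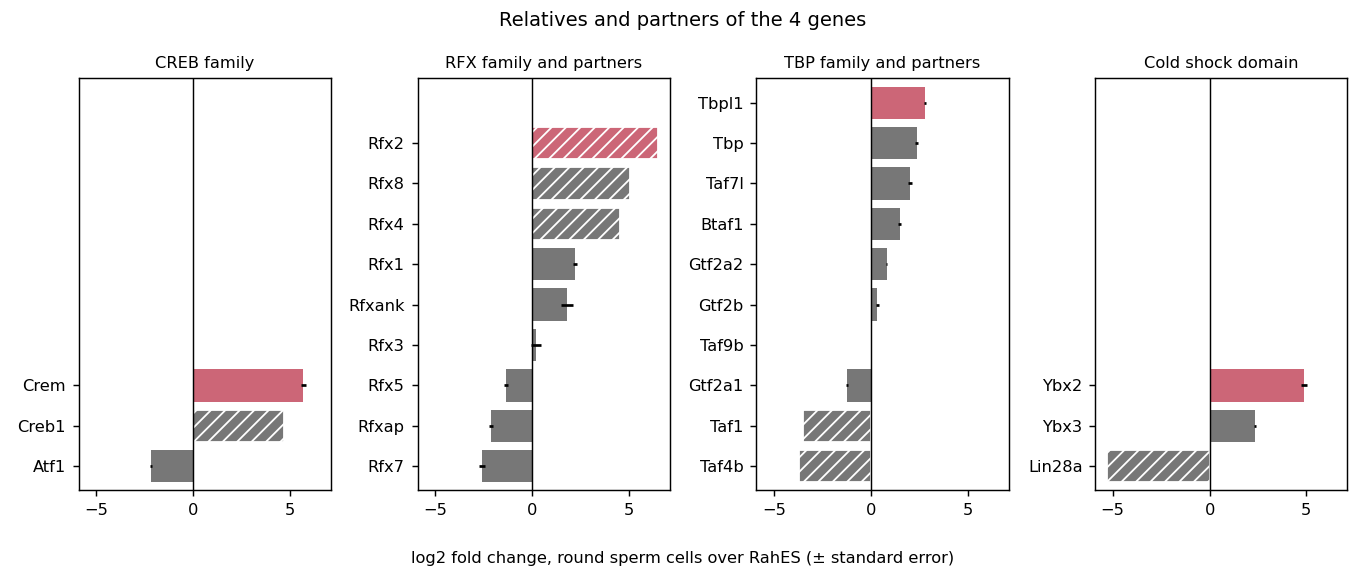
Log2 fold change in round sperm cells over RahES of the measured relatives and partners of the 4 genes, each on its brightest probe set; red bars are Crem, Rfx2, Tbpl1 and Ybx2, grey bars the other genes, and black lines are standard errors. Hatched bars without a line are bounds, for genes below 100 on every array of 1 side. Bars run in both directions in each panel, and other probe sets of Creb1, Rfx7 and Gtf2a1 in part disagree with the bar shown.

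Genes of cilia and the sperm tail, the class that RFX factors act on in other animals, were counted next. Of 23 measured genes of the axoneme and of intraflagellar transport, 21 rose and 0 fell, beside 27.9% and 43.6% of all probe sets. The median was 3.87, or 3.78 with bounds in place of fits against an ES signal below 100. The other 2, chosen here after their values were seen, were Ift20 (0.45 ± 0.04) and Ift52 (-0.09 ± 0.06), both of intraflagellar transport. Tekt4, which encodes a filament protein of the tail, averaged 15454 in round sperm cells and was at least 154-fold higher. Spag16, a protein of the central apparatus, was at least 83.9-fold higher. Tekt1 rose by 7.57 ± 0.17, from RahES signals of 45.5 to 127, so the size of this rise is uncertain. Tekt4, Spag16, Dnai1, Dnali1, Ccdc40 and Drc1 were below 100 on every ES array and entered the fit only through round sperm cells. Ift81 and Tekt1 reached 100 on fewer than 3 ES arrays, so they too entered only with the help of round sperm cells. The entry of all these genes leaned on their round sperm signal, so for them the count is no test.

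Of 9 tested relatives and partners of Tbpl1 in the general transcription machinery, 3 rose and 3 fell, beside 27.9% and 43.6% of all probe sets, with a median of 0.35, and with median centring 5 rose. Tbp itself rose by 2.37 ± 0.07, from a mean of 1345 in RahES to 7024 ± 264 (SD, n = 3). Against all 9 ES arrays, Tbpl1 changed by 0.54 more than Tbp within arrays (exact permutation, adjusted p = 0.00682). The excess differed between ES lines: Tbp rose by 2.37 against DA5-3 too, whereas Tbpl1 rose by 2.81 against RahES and 3.14 against DA5-3. Taf7l, a germ cell form of a TFIID subunit, rose by 2.02 ± 0.11, and Btaf1, which removes TBP from DNA, rose from a mean of 1228 to 3495 ± 96.0 (SD, n = 3).

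Among the subunits of TFIIA, the partner of TBPL1, the probe sets did not move together. Gtf2a1 fell by 1.23 ± 0.06 on 1367539_at, which was -0.56 and no longer called with median centring, whereas its other probe set 1369548_at averaged 785 in round sperm cells against 78.6 in RAH-6 and 86.5 in RAH-2. Gtf2a2 changed by 0.83 ± 0.04, under the threshold of 1, from a mean of 8597 to 15247. The large TFIID subunit genes Taf1 and Taf4b were below 100 on all round sperm arrays, at least 11.3-fold and 13.2-fold lower. Gtf2b changed by 0.35 ± 0.09 and was not called, and Taf9b had means of 82.5 to 104 in the 4 groups, too close to 100 for a fold.

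For Ybx2, 2 relatives with a cold shock domain were measured. Ybx3, also an mRNA-binding Y-box protein of spermatids, rose by 2.37 ± 0.05 from a mean of 4788 in RahES to 24520 ± 1528 (SD, n = 3). Lin28a, an RNA-binding protein of pluripotent cells, averaged 3984 in RahES and was below 100 on every round sperm array, at least 39.6-fold lower. Against all 9 ES arrays, Ybx2 changed by 2.67 more than Ybx3 within arrays (exact permutation, adjusted p = 0.00682).

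Of 20 other genes for mRNA storage, polyadenylation and translation in germ cells, 8 rose and 7 fell, beside 27.9% and 43.6% of all probe sets, with a median of 0.05. Papolb, a testis poly(A) polymerase, and Ddx25, a helicase of spermatid mRNA, were at least 111-fold and 136-fold higher, and Eif4g3 rose by 3.01 ± 0.05. Elavl1, which stabilises mRNA in many tissues, fell by 5.24 ± 0.06, and the changes were -4.78 ± 0.10 for Pabpc4 and -4.18 ± 0.06 for Celf1.

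Of 9 tested transcription regulators of male germ cells outside these families, 4 rose and 2 fell, beside 27.9% and 43.6% of all probe sets, with a median of 0.54. Tcfl5 rose by 2.82 ± 0.07 to a mean of 20568, and Mybl1, a factor of meiotic cells, by 1.67 ± 0.10. Zfx, an X-linked zinc finger gene, was below 100 on every round sperm array and at least 11.8-fold lower. Gmcl1 fell by 1.24 ± 0.09, which was -0.57 and not called with median centring. The 9 genes include Taf7l, which also stands in the list of TBP partners.

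Among ES cells the members differed little. Called probe sets made up 6.24% of 12377 for RahES against DA5-3, 7.37% for RAH-6 against DA5-3, 6.17% for RAH-2 against DA5-3 and 0.671% for RAH-6 against RAH-2, and none of the 5 tested member probe sets was called in any of the 4. The last share rests on 83 probe sets, which became 52 without RAH-2 replicate 1 and 157 without RAH-2 replicate 2. The median change over all probe sets was 0.03 in each comparison with DA5-3. An adjusted p below 0.05 with any size of change was common: 53.7% of all probe sets met it for RahES against DA5-3, 51.9% for RAH-6, 46.5% for RAH-2 and 15.2% between the haploid lines. Of the 5 member probe sets, 2 met it between RahES and DA5-3, Crem 1369738_s_at and Tbpl1, which is no more than this background. Their values follow as a description.

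Crem 1369738_s_at had its highest ES signals in DA5-3. The 3 DA5-3 arrays, at 163 to 201, lay above all 6 RahES arrays, at 96.1 to 145. The difference was -0.50 ± 0.15 for RahES against DA5-3 (limma, adjusted p = 0.0158), -0.49 ± 0.18 for RAH-6 and -0.52 ± 0.18 for RAH-2, with 0.03 ± 0.18 between the haploid lines. Over the alternatives it ranged from -0.58 to -0.39, with an adjusted p of up to 0.0639. Other Crem probe sets did not follow it, since 1378925_at differed by 0.14 ± 0.12 and 1387714_at by 0.08 ± 0.18 (limma, adjusted p = 0.328 and 0.736). The signal of 1387714_at lay close to the threshold, reaching 100 on 4 of 6 RahES arrays and 1 of 3 DA5-3 arrays.

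Tbpl1 had the order round sperm cells, RAH-2, RAH-6, DA5-3, with ES means of 3499 ± 262, 3029 ± 253 and 2597 ± 326 (SD, n = 3 each). RAH-2 and DA5-3 did not overlap and differed by 0.43 ± 0.09 (limma, adjusted p = 0.00202). RAH-6 overlapped both neighbours, with 0.22 ± 0.09 against DA5-3 (limma, adjusted p = 0.0549) and -0.21 ± 0.09 against RAH-2 (limma, adjusted p = 0.144). For RahES against DA5-3 the difference was 0.33 ± 0.08 (limma, adjusted p = 0.00366), and it ranged from 0.25 to 0.43 over the alternatives with an adjusted p of up to 0.0220.

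Ybx2 differed by -0.08 ± 0.17 between RahES and DA5-3 (limma, adjusted p = 0.732). Its sign turned when DA5-3 replicate 1 was left out (0.13), the array with the highest ES signal of 190. Rfx2 and Crem 1369737_at were below 100 on all ES arrays, and no order among the lines is read from them. A difference under the threshold does not show equal levels, and the 95% interval for Ybx2 reached from -0.46 to 0.30.

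**Figure D4:**
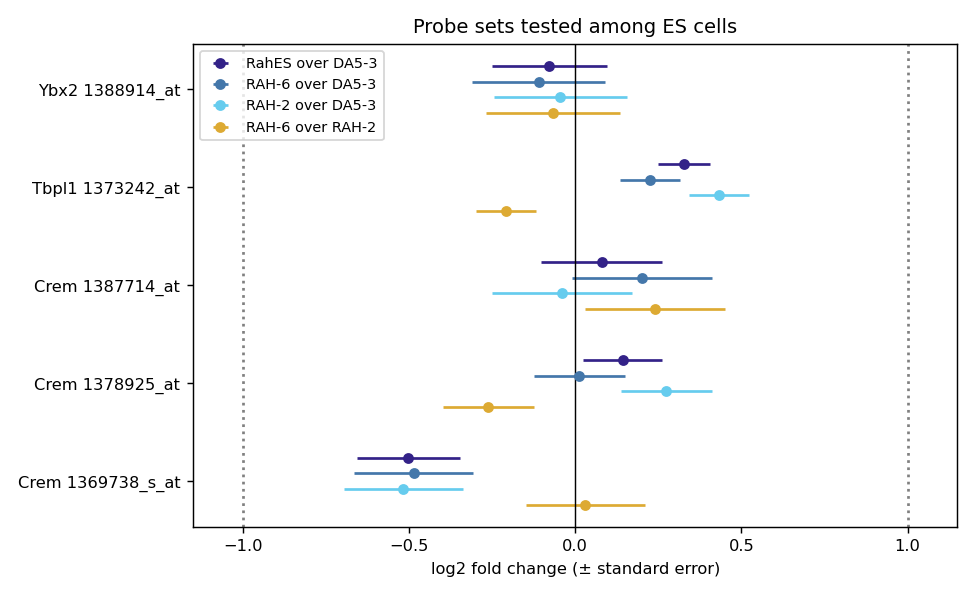
Log2 fold change of the 5 member probe sets tested among ES cells, for 4 comparisons; bars are standard errors of the limma fit and dotted lines are changes of -1 and 1. All points lie between -0.52 and 0.43, with Crem 1369738_s_at to the left and Tbpl1 to the right of 0 in the comparisons with DA5-3.

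Of the listed relatives and partners, Taf7l and Tekt2 were called between RahES and DA5-3, where 6.24% of all probe sets were called. Tekt2 was the only call among 15 tested axoneme and transport genes. Taf7l was the only call among 8 tested partners of Tbpl1 and among 9 germ cell regulators. The other lists held no call. Taf7l read 181 to 276 on the RahES arrays and 73.9 to 85.4 on those of DA5-3, at least 2.21-fold higher (limma, adjusted p = 2.08e-06). Tekt2, a filament protein of the sperm tail, averaged 620 against 234 and differed by 1.35 ± 0.09. Fibroblast markers moved with these ES comparisons, with summed signals of 19935 to 22211 in DA5-3 against 610 to 2848 in RahES. The spermatocyte sum was 987 to 1131 against 3004 to 3793. Most of it was Sycp3, with means of 732 in DA5-3, 3013 in RAH-6 and 2733 in RAH-2. Smc1b and Tex101 were also lower in DA5-3, and Sycp1, Sycp2 and Spo11 were below 100 on every ES array. The part of either marker set in the differences was not tested.

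The genes most like each member over the 12 arrays were found by the root mean square difference of mean-centred log2 profiles among 14071 probe sets. Those nearest to Crem 1369738_s_at were Svip, Pou2af3 and Asb13 at 0.165 to 0.222, and those nearest to Rfx2 were Tekt5, Hspa2 and Pkib at 0.119 to 0.177. Tex2, Baz1a and Slx4 were nearest to Tbpl1 at 0.0612 to 0.120, and Zfp672, Obi1 and Ccdc40 to Ybx2 at 0.196 to 0.209. These profiles are shaped mainly by the gap between round sperm cells and ES cells, and many probe sets share it: 204 lay within 0.5 of Crem, 137 of Rfx2, 1247 of Tbpl1 and 354 of Ybx2.

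Over the 9 ES arrays alone the nearest genes were others. They were Slc43a2, Czib and Slx9 for Crem at 0.102 to 0.124, Adprh, Gpr137b and Lbr for Tbpl1 at 0.0501 to 0.0591, and Phf3, Wasl and Chd7 for Ybx2 at 0.108 to 0.127. Of 12377 probe sets, 9857 lay within 0.5 of Crem, 11064 of Tbpl1 and 10974 of Ybx2, so closeness is common among ES arrays.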

How the data were processed

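Total RNA of 12 samples was hybridized as biotin-labelled cRNA, 1 array per sample. The authors deposited log2 values of MAS5 signals (named without a version in the submitters' processing notes). The 2% trimmed mean of the linear signal was 500 on every array. Probe sets were named by the array's annotation table, and those naming several genes were left out. The test was that of limma 3.58.1 (R 4.3.3), with a trended variance prior, on log2(signal + 16), round sperm comparisons in 1 fit of 12 arrays and ES comparisons in 1 fit of 9, with RahES the equally weighted mean of RAH-6 and RAH-2. Fold changes on this scale understate changes of low signals. A gene of a list stands for its probe set of highest mean signal.

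Named were all member probe sets, all measured relatives, the 3 called genes with the largest rise and the 3 with the largest fall of each other list, genes called between RahES and DA5-3, and the 3 nearest genes. Members, the 9 lists and the tests were chosen with earlier results of these data known, and the tests of unequal change after the data were seen. The fit recovered seeded changes in simulated data. Array replicate numbers did not pair samples: deviations of same-numbered arrays correlated at -0.0754 to 0.0556 over 18 pairs. A deposited report file whose array names match no label was not used.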

Additional observations from a re-analysis of the deposited data

How the results depend on the processing

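The alternatives were offsets of 1 and 64, no filter or a filter of 200, median centring, quantile normalization, 1 probe set per gene, no variance trend, the other set of arrays for ES comparisons, a replicate block, and each array left out in turn on the same probe sets. Of 225 repeats of the member changes in round sperm cells, 225 kept direction and call. These include repeats of Rfx2 and Crem 1369737_at, which entered the fit only through round sperm cells. Their entry already required a difference, so for them the repeats and the member counts below are a description and not a test. With 1 probe set per gene 4 members were called in place of 7 in each round sperm comparison, because 1 Crem probe set remains. With the replicate block 7 members were called against RahES and 7 against DA5-3, and the block changed no other call. An offset of 64 lowered the calls over all probe sets from 772 to 492 (RahES against DA5-3), 912 to 597 (RAH-6 against DA5-3), 764 to 485 (RAH-2 against DA5-3) and 83 to 30 (RAH-6 against RAH-2). The last count was 128 without a filter and 52 with a filter of 200, which change the number of probe sets tested, and 52 to 157 with 1 array left out. For the other changes the cause was not tested. The median change of all probe sets against RahES moved from -0.62 to 0.05 with median centring and -0.20 with quantile normalization.

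Of 315 repeats of member values among ES cells, 17 turned sign, none of them called. For Crem 1378925_at, RAH-6 against DA5-3 was -0.0424 with median centring, -0.0451 with quantile normalization and -0.10 to 0.19 with 1 array left out. For Crem 1369738_s_at, RAH-6 against RAH-2 was -0.0718 with quantile normalization and -0.0567 to 0.20 with 1 array left out. With 1 array left out, Ybx2 ranged from -0.20 to 0.0208 (RAH-6 against RAH-2), -0.18 to 0.16 (RAH-2 against DA5-3), -0.21 to 0.13 (RahES against DA5-3) and -0.24 to 0.0924 (RAH-6 against DA5-3), and Crem 1387714_at from -0.22 to 0.20 (RAH-2 against DA5-3) and -0.10 to 0.32 (RahES against DA5-3). Among 18 tests of unequal change, whose alternatives were chosen after seeing the data, sign changes mostly concerned probe sets below 100 on all ES arrays, for which no order is read. Crem against Creb1 was -0.0809 with an offset of 1 and -0.0835 with quantile normalization, Rfx2 against Rfx4 -0.0843 and against Rfx8 -0.84 with an offset of 1, Crem 1369737_at against 1378925_at -0.17 with an offset of 64, and Crem 1378925_at against 1387714_at -0.0329 with quantile normalization. Signals below 100 limit what can be said of Rfx2 and Crem 1369737_at in ES cells.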
